A study of Mus musculus with 4 samples.

Results

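A set of 10 genes that T cells switch on when the antigen receptor fires, several of which feed back on its signal, was followed in the single-cell counts of virus-specific CD8+ T cells: *Nr4a1*, *Nr4a2*, *Nr4a3*, *Egr1*, *Egr2*, *Egr3*, *Dusp1*, *Dusp2*, *Dusp5* and *Nfatc1*. They were chosen by symbol, and all 10 were found among the 27998 genes listed. The cells were splenocytes of 2 mixed bone marrow chimeras taken on day 8 after intraperitoneal infection with LCMV Armstrong, an acutely resolving strain of lymphocytic choriomeningitis virus. Each host was a sub-lethally irradiated *Rag1*-/- mouse, which makes no T or B cells of its own, given WT (CD45.1) and *Bcl3*-/- (CD45.2) marrow in equal parts. The strain background is C57bl/6 throughout. *Bcl3* encodes Bcl-3, an atypical IκB protein that acts with NF-κB in the nucleus, and the deletion is present in every *Bcl3*-/- donor cell, not only in T cells. From each chimera, WT and *Bcl3*-/- CD8+ T cells that bound the H-2Db-GP33 tetramer were sorted into separate libraries. WT1 and KO1 are the libraries of chimera 1, WT2 and KO2 those of chimera 2, so that n = 2 libraries per genotype and the libraries of one chimera share an animal. The 2 genotypes also differ in their CD45 allele and in their sort gate, and these cannot be told apart from the deletion.

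Signal from the T cell receptor runs through 2 well-known branches, the calcium, calcineurin and NFAT branch and the MAP kinase branch. *Egr* genes encode zinc-finger factors induced through MAP kinase, *Nr4a* genes encode orphan nuclear receptors induced through calcium and MAP kinase and are widely used as a record of recent receptor signal, and *Dusp* genes encode phosphatases that remove phosphate from MAP kinases. *Dusp2* (PAC-1) and *Dusp5* act in the nucleus on MAP kinases, *Dusp1* (MKP-1) is also a stress-response gene of myeloid cells, and *Nfatc1* encodes an NFAT factor whose short form is itself induced by NFAT.

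The stretches of promoter below hold matches to the kinds of site known from immediate early genes, and are shown so that the members can be compared. Capitals mark a CRE half-site (TGACG, the core of the site read by CREB and ATF factors), the whole CRE (TGACGTCA), a CArG box (the site of serum response factor) or an EGR site (GCGTGGGCG or GCGGGGGCG). On each line they mark only the match that the line names, and further matches may stand in lower case. Both strands were searched, a whole CRE contains half-sites, and each stretch is 30 bases of the sense strand of the gene from RefSeq (GRCm38.p6), within the 250 bases before the start.
Nr4a1, chr15:101266621-101266650, plus strand, half-site: gaaccccgcgtgCGTCAcgcgcgcagacat
Nr4a1, chr15:101266765-101266794, plus strand, half-site: ccgggccgtgtgCGTCAgtggcgcccccgc
Nr4a1, chr15:101266776-101266805, plus strand, EGR site: gcgtcagtggCGCCCCCGCccctctccatg
Nr4a1, chr15:101266794-101266823, plus strand, half-site: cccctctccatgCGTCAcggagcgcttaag
Nr4a2, chr2:57124130-57124159, minus strand, half-site: gccggctgcacgCGTCAcggagcccggccg
Nr4a3, chr4:48045080-48045109, plus strand, half-site: agcgtcccatgtCGTCAcattgacgtctcg
Egr2, chr10:67537787-67537816, plus strand, CArG box: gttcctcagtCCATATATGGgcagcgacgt
Dusp1, chr17:26508597-26508626, minus strand, whole CRE: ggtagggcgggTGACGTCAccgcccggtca
Dusp2, chr2:127336051-127336080, plus strand, EGR site: acgtgaagccGCGGGGGCGggcaccggcgc
Dusp5, chr19:53529058-53529087, plus strand, 2 CArG boxes side by side: aatacCCATATTTGGCCTTATATGGgcact

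Promoter entries were found for 7 of the 10 genes, and none was used for *Egr1*, *Egr3* or *Nfatc1*. The 250-base window of *Nr4a1* held 4 half-sites, as did those of *Nr4a2* and *Nr4a3*. *Egr2* has 5 promoter entries, of which the first held no match, and its stretch lies in entries 3 to 5. Among 32851 promoter windows of the same length, 17.8% held at least 1 half-site, 1.55% a whole CRE, 1.47% a CArG box, 0.536% the EGR site GCGTGGGCG and 2.57% the EGR site GCGGGGGCG. Of the other sites searched, the AP-1 site TGACTCA and the NBRE AAAGGTCA, which NR4A proteins bind, matched none of the 7 genes (4.46% and 1.34% of all windows), and the NFAT core GGAAA matched *Nr4a2*, *Dusp5* and the later *Egr2* entries (55.6% of all windows). These are matches of letters, not measured binding.

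Cells were kept if they had 500 or more genes and if no more than 10% of their UMIs were mitochondrial, and the libraries then held 4941 (WT1), 8092 (WT2), 5366 (KO1) and 6494 (KO2) cells. Median depth was 3571, 2019, 3620.5 and 2948 UMIs per cell in the same order, so WT2 was the shallowest. Between 37 and 63 cell barcodes were shared by any 2 libraries, against 36.0 to 71.3 for lists drawn at random. Cells were grouped into clusters in each library from genes that did not include the 10 genes or the lists compared with them. The labelled cell type was borne out: among cells in T cell clusters, *Cd8b1* was found in 92.5% (WT2) to 99.1% (KO1) and *Cd4* in 0.396% (KO2) to 0.865% (WT1). All libraries also held B-like and myeloid-like clusters, and 6.40% (WT1), 4.65% (WT2), 7.79% (KO1) and 6.76% (KO2) of cells lay outside the T cell clusters. Levels are given as CPM, a gene's UMIs scaled to the total UMIs of the same cells. Markers of other cells were also found inside the T cell clusters, where the 9 myeloid-like markers summed to 973 (WT1), 617 (WT2), 931 (KO1) and 695 (KO2) CPM and none was at 0. Their neutrophil gene *S100a8* stood at 242, 101, 284 and 181 CPM in 49.6%, 20.5%, 65.0% and 42.4% of these cells, higher in the *Bcl3*-/- library of both chimeras, while *Lyz2* stood at 165, 149, 129 and 96.6 CPM, lower in both. The 6 erythroid-like markers summed to 65.1, 32.9, 1.56 and 193 CPM, highest in KO2. The part of these markers in the genotype differences below was not tested. Since a 3′ kit counts 1 UMI per captured transcript, levels are not divided by gene length.

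The deleted gene itself did not check the labels. *Bcl3* had 33.2 (WT1), 107.7 (WT2), 27.6 (KO1) and 86.6 (KO2) CPM in all cells, so its UMIs were not lost in the *Bcl3*-/- libraries and differed more between chimeras than between genotypes. Its log2 fold change was -0.33 ± 0.58 (SE; edgeR, adjusted p = 0.837), and -0.31 ± 0.08 (adjusted p = 0.0201) with the chimera as a block. The deleted part of the gene is not given in the sources used here, and 3′ counts from outside it would check nothing. WT and *Bcl3*-/- below, and every direction between them, therefore rest on the labels.

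The genes fell into 2 groups by level. *Dusp2*, *Dusp5* and *Nfatc1* were readily counted, with 1571 to 2993, 1235 to 2083 and 666 to 1108 UMIs per library. The other 7 were rare. *Nr4a1* had 83 (WT1), 102 (WT2), 119 (KO1) and 164 (KO2) UMIs, *Nr4a2* 60 to 99, *Egr1* 107 to 136, *Dusp1* 116 to 313, *Egr2* 14 to 36 and *Nr4a3* 13 to 18. *Egr3* had 1 UMI in WT1, WT2 and KO2 and 0 in KO1, where 3 UMIs would have been 0.138 CPM, so no direction is given for it. In the T cell clusters the 6 *Nr4a* and *Egr* genes together came to 14.8, 15.3, 10.5 and 13.2 CPM, well under *Dusp2* alone.

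**Figure D1:**
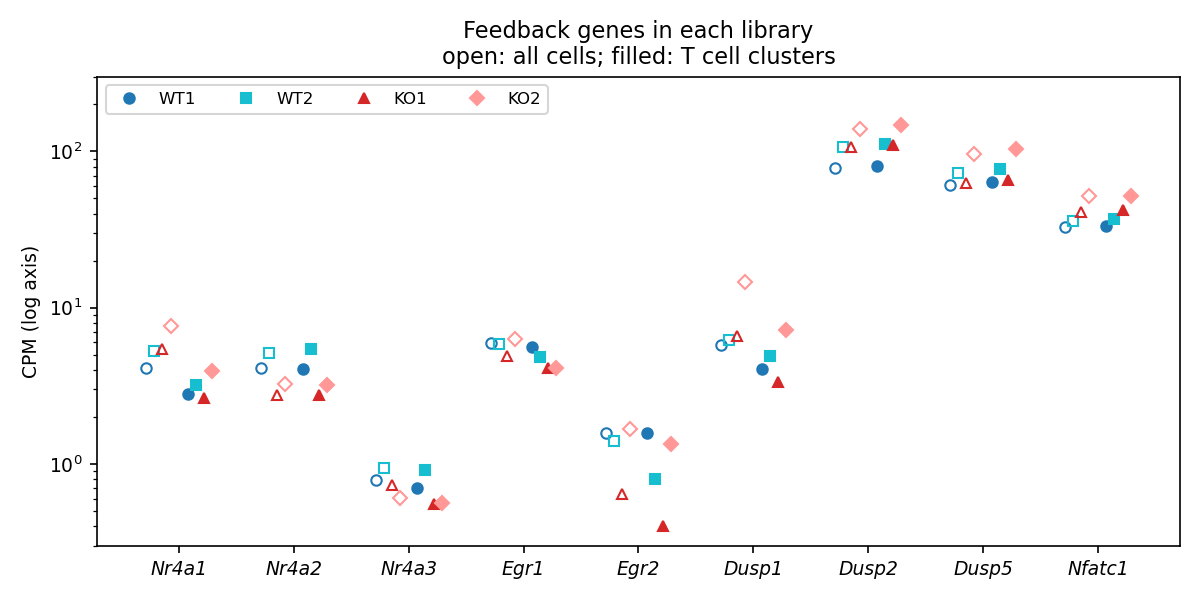
Level of 9 of the 10 genes (Egr3 left out) in CPM on a log axis, 1 point per library, for all cells (open) and for the T cell clusters (filled). Dusp2, Dusp5 and Nfatc1 lay between 33.0 and 147 CPM, and Nr4a1 and Dusp1 were lower in the T cell clusters than in all cells in every library.

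Much of the *Nr4a1* and *Dusp1* signal lay outside T cells, and part of that of *Egr1*, *Egr2* and *Nr4a3*. Cells outside the T cell clusters held 37.3% (WT1), 45.1% (WT2), 56.3% (KO1) and 53.0% (KO2) of *Nr4a1* UMIs, against 8.44% to 9.69% of the UMIs of all genes. The clusters led by *Lyz2*, *C1qb* and MHC class II genes, as macrophages and monocytes are, held 25, 41, 54 and 59 *Nr4a1* UMIs in 119, 146, 136 and 115 cells of WT1, WT2, KO1 and KO2. Their *Nr4a1* level of 28.3 to 60.4 CPM was far above the 2.62 to 3.96 CPM of the T cell clusters. *Dusp1* UMIs lay outside T cells for 35.3%, 28.3%, 53.8% and 55.6%. Clusters led by *S100a8* and *S100a9*, as neutrophils are, reached 1% of a library in KO1 (108 cells) and KO2 (100 cells) and in neither WT library. They held 48 *Dusp1* UMIs in KO1, 182 CPM with an exact Poisson 95% interval of 134 to 242, and 131 in KO2, 577 CPM with an interval of 482 to 684. *Egr1* UMIs lay outside T cells for 14.2%, 24.8%, 23.4% and 41.2%. For *Nr4a3* the share was 11.1% to 31.3% and for *Egr2* 9.38% to 48.1%, above that of all genes in the same library in 4 of 4 libraries but on 2 to 13 UMIs. By contrast, *Dusp2* and *Dusp5* were depleted in the pooled cells outside the T cell clusters. These cells held 4.17% to 6.31% and 2.59% to 4.13% of their UMIs. Among them, B-like cells had *Dusp2* at 45.2 (WT1), 70.3 (WT2), 129 (KO1) and 121 (KO2) CPM. In WT1 the B-like cluster led by *Cd79a* had 76.0 CPM. In KO1 the B-like level was above the 109 CPM of the T cell clusters, and in WT1, WT2 and KO2 below theirs. The B-like level was higher in the *Bcl3*-/- library of both chimeras, the myeloid-like level in chimera 1 only. Whether the *Dusp2* difference is particular to T cells was not tested. Intervals here and below cover counting error only.

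**Figure D2:**
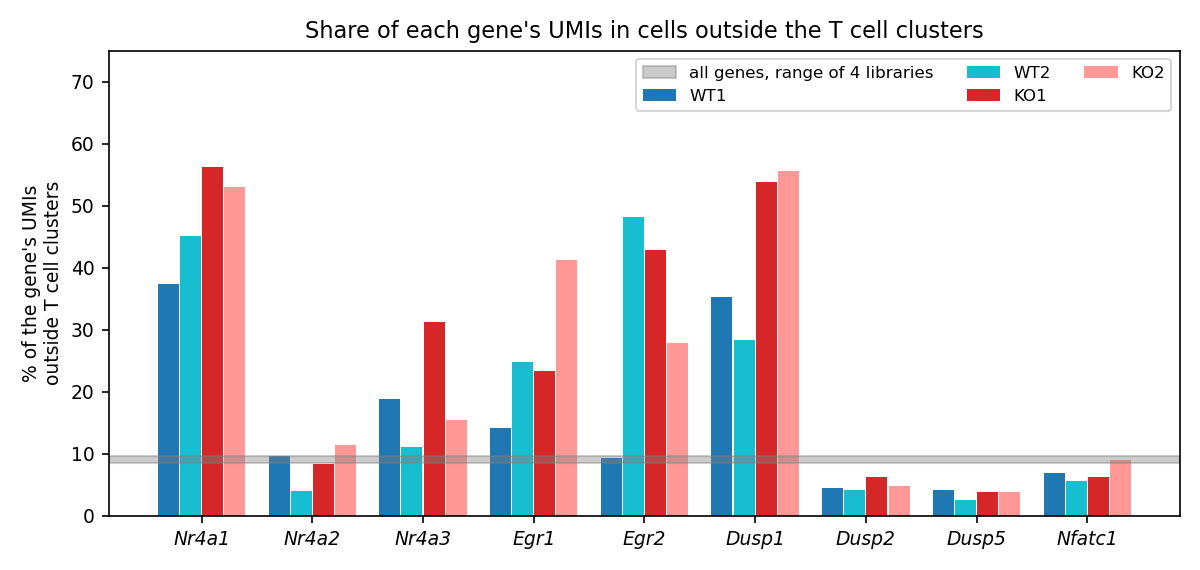
Percent of each gene's UMIs found in cells outside the T cell clusters, 1 bar per library, with a grey band for the share of the UMIs of all genes (8.44% to 9.69%). Nr4a1, Nr4a3, Egr1 and Dusp1 stand above the band in all 4 libraries, Egr2 in 3, and Dusp2 and Dusp5 below it.

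Free RNA also has to be set beside these levels. In barcodes with 10 to 50 UMIs, too few for a cell, *Dusp2* stood at 93.3 (WT1), 111 (WT2), 147 (KO1) and 210.1 (KO2) CPM, at or above its level in cells of the same library. *Dusp5* stood at 40.0, 20.2, 43.8 and 90.3 CPM there, which rests on 9, 2, 26 and 52 UMIs. *Nfatc1* stood at 31.1, 60.6, 38.8 and 52.1 CPM on 7, 6, 23 and 30 UMIs. The rare genes had few UMIs there, 2, 0, 3 and 5 for *Nr4a1*, 0, 1, 1 and 3 for *Egr1* 0, 0, 1 and 5 for *Egr2* and 0, 0, 6 and 17 for *Dusp1*. Their levels still reached those of cells in places, with 8.88 against 4.11 CPM of *Nr4a1* in WT1, 10.1 against 5.88 CPM of *Egr1* in WT2 and 8.68 against 1.67 CPM of *Egr2* in KO2. *Dusp1* stood at 10.1 against 6.56 CPM in KO1 and at 29.5 against 14.5 CPM in KO2, and had no UMI there in either WT library. The near-empty barcodes held 1.06% (WT1), 0.487% (WT2), 2.59% (KO1) and 2.54% (KO2) of all UMIs, a higher share in both *Bcl3*-/- libraries. Their *Dusp2* level was also higher in both, and that of *Dusp5* was highest in KO2, as in the cells. The part of free RNA in the genotype differences and in the cells that carry a UMI of a rare gene was not tested.

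The question for the genotypes was whether *Bcl3*-/- T cells carry more or less of this feedback program than WT cells of the same animal. Without regard to the chimera, no gene of the 10 passed the test, in all cells or in the T cell clusters. With each chimera as a block, *Dusp2* and *Nfatc1* rose in *Bcl3*-/- cells and *Nr4a2* fell in the T cell clusters. Counts were summed per library, all genes were fitted with the quasi-likelihood test of edgeR, and p-values were adjusted after Benjamini and Hochberg. Over all genes, 0.363% of 11566 were called in all cells (0.285% higher and 0.0778% lower) and 0.252% of 11104 in the T cell clusters (0.198% higher and 0.054% lower). At an unadjusted p under 0.05 the count was 4 of 9 members tested in all cells (15.6% of all genes) and 3 of 9 in the T cell clusters (13.8%). DESeq2 called 0 as well, with 3 and 2 of 10 unadjusted (6.99% and 6.1% of all genes). With the block, which leaves 1 residual degree of freedom per gene and leans on the spread shared by all genes, 9.65% of genes were called in all cells and 12.5% in the T cell clusters. Of the 9 members tested, 3 were then called higher in all cells and 0 lower (4.81% and 4.84% of all genes), and in the T cell clusters 2 were called higher (6.19%) and 1 lower (6.29%).

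*Dusp2*, the nuclear phosphatase of activated lymphocytes, stood in T cell clusters at 81.1 (WT1), 112 (WT2), 109 (KO1) and 147 (KO2) CPM. KO1 was above WT1 and KO2 above WT2, by 1.35- and 1.31-fold, but KO1 was no higher than WT2, so the genotypes overlapped. The log2 fold change was 0.40 ± 0.17 (SE; adjusted p = 0.351) without the block and 0.40 ± 0.07 (adjusted p = 0.000152, edgeR) with it. The *Dusp2* value without the block was 0.20 without WT1, 0.22 without KO2 and 0.61 without WT2. *Nfatc1* stood at 33.5, 37.1, 42.1 and 51.9 CPM, and here both *Bcl3*-/- libraries lay above both WT libraries. Its log2 fold change was 0.40 ± 0.10 (adjusted p = 0.204) without and 0.40 ± 0.09 (adjusted p = 0.00235) with the block. In all cells the same 2 genes had log2 fold changes of 0.40 and 0.40 with the block (adjusted p = 0.00253 and 0.0103), and that of *Dusp2* without the block was 0.21 without WT1, 0.25 without KO2 and 0.60 without WT2.

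*Dusp5*, the nuclear phosphatase of ERK, stood at 64.0, 77.2, 66.1 and 103 CPM in the T cell clusters. KO2 was the high library, while KO1 lay between the WT libraries. The log2 fold change was 0.24 ± 0.18 (adjusted p = 0.593), with the block 0.22 ± 0.08 (adjusted p = 0.0651), and it fell to -0.06 without KO2. *Dusp1* was called with the block in all cells, at a log2 fold change of 0.72 ± 0.21 (adjusted p = 0.0452). Its levels in all cells were 5.74 (WT1), 6.24 (WT2), 6.56 (KO1) and 14.5 (KO2) CPM. In the T cell clusters they were 4.06, 4.91, 3.33 and 7.15 CPM, the genotypes overlapped, and the log2 fold change was 0.15 ± 0.22 (adjusted p = 0.732) with the block. Without KO2 the all-cell value was 0.16 (no block), and without KO1 1.21.

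Of the *Nr4a* and *Egr* genes, 1 was called, *Nr4a2* in the T cell clusters with the block. It had 75, 95, 55 and 62 UMIs in the T cell clusters, or 4.06 (WT1), 5.43 (WT2), 2.78 (KO1) and 3.19 (KO2) CPM, with both WT libraries above both *Bcl3*-/- libraries. The log2 fold change was -0.68 ± 0.24 (adjusted p = 0.291), and with the block -0.67 ± 0.23 (adjusted p = 0.0456), just past the threshold. The 2 T cell states with the highest *Nr4a2*, described below, were smaller in both *Bcl3*-/- libraries, with Tcf7/Ccr7 cells at 5.57% (WT1), 5.50% (WT2), 2.199% (KO1) and 2.82% (KO2) of each library and cycling cells at 15.8%, 13.1%, 9.91% and 10.9%. Within unnamed effector cells *Nr4a2* stood at 2.92, 4.42, 2.74 and 3.30 CPM, where the genotypes overlapped, with a log2 fold change of -0.29 ± 0.29 with the block (edgeR adjusted p = 0.640). Without the block it was -0.54 without WT1 and -0.011 without WT2. Within cycling cells it was -0.83 ± 0.35 with the block (edgeR adjusted p = 0.164). The part of the state shares in the pooled value was not tested. *Nr4a1* stood at 2.81, 3.20, 2.62 and 3.96 CPM in the T cell clusters, with overlapping genotypes and a log2 fold change of 0.12 ± 0.27 (adjusted p = 0.883). In all cells its log2 fold change was 0.45 ± 0.21 (adjusted p = 0.352), or 0.25 without KO2. The *Nr4a1* UMIs of the macrophage-like clusters, given above, were also more numerous in the *Bcl3*-/- library of both chimeras. Their part in the all-cell value was not tested. *Egr1* stood at 5.57, 4.86, 4.14 and 4.12 CPM in the T cell clusters, with a log2 fold change of -0.35 ± 0.21 (adjusted p = 0.4995). *Nr4a3* and *Egr2* had log2 fold changes of -0.53 ± 0.43 and -0.48 ± 0.60 (adjusted p = 0.623 and 0.772), on 11 to 16 and 8 to 29 UMIs per library. In the T cell clusters, 3 of the 9 genes other than *Egr3* were higher in the *Bcl3*-/- library of both chimeras (*Dusp2*, *Dusp5*, *Nfatc1*) and 3 lower (*Nr4a2*, *Nr4a3*, *Egr1*).

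**Figure D3:**
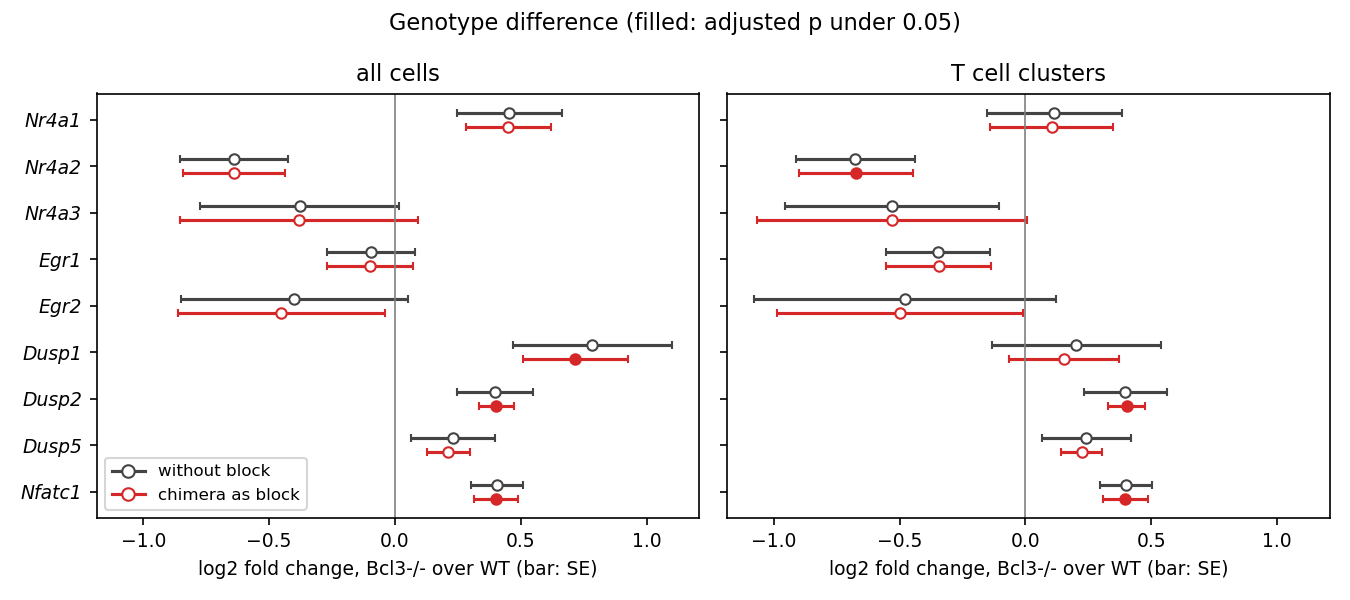
Log2 fold change of Bcl3-/- over WT libraries with its standard error for 9 genes, in all cells (left) and T cell clusters (right), from the edgeR fit without (grey) and with (red) the chimera as a block. Filled points passed an adjusted p of 0.05. The Dusp2 and Nfatc1 values are alike in both panels, and that of Dusp1 drops from 0.72 to 0.15 with the block once other cells are left out.

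The share of cells with at least 1 UMI was compared after every cell had been thinned to 1000 UMIs. A UMI of any of the 10 genes was then found in 16.99% (WT1), 21.0% (WT2), 20.6% (KO1) and 26.2% (KO2) of cells, a difference of 4.42 percentage points between genotype means (exact two-sided permutation test, p = 0.667, n = 2 per genotype). The difference was 1.60 points without KO2, 2.42 without WT1 and 7.23 without KO1. Without thinning the shares were 48.7%, 39.2%, 55.8% and 58.5%. The permutation takes no account of the chimera, and the share was higher in the *Bcl3*-/- library of both chimeras, thinned or not. No p under 0.333 can be reached with 2 against 2 libraries. *Nfatc1* was found in 2.93%, 3.44%, 4.05% and 5.34% of cells, with both *Bcl3*-/- libraries above both WT libraries (exact permutation p = 0.333, n = 2). *Dusp2* was found in 7.75%, 10.8%, 10.4% and 12.8% of cells in the T cell clusters, against 5.88%, 4.11%, 5.98% and 3.83% of myeloid-like cells and 5.16%, 8.11%, 14.9% and 12.7% of B-like cells. The T cell share was thus above the myeloid-like share in all 4 libraries, but not above the B-like share in KO1. These classes are not alike between libraries, since the B-like cells of WT1 include 50 cells led by *Jchain* and *Mzb1*, as plasma cells are, and the myeloid-like cells of KO1 and KO2 include the neutrophil clusters. Without thinning, *Dusp2* was found in 24.8%, 20.5%, 32.3% and 32.4% of T cells. A UMI of any of the 6 *Nr4a* and *Egr* genes was found in 1.32%, 1.13%, 0.931% and 0.993% of T cells, lower in both *Bcl3*-/- libraries (exact permutation p = 0.333, n = 2), but without thinning in 4.24%, 2.41%, 3.35% and 3.34%, with overlapping genotypes. In all cells it was 1.53%, 1.23%, 1.25% and 1.44%, with no such order.

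The 5 T cell states were compared: cells of Tcf7/Ccr7 clusters, which carry naive and memory precursor genes, terminal effector-like, cycling and interferon-stimulated cells, and the remaining effector cells, whose clusters took no name and which made up 54.1% to 57.6% of each library. The unnamed cells include clusters led by *Tcf7* and *Il7r* in KO1 (859 cells) and KO2 (942 cells), and by *Il7r* in WT1 (611 cells). They also include 407 cells of KO2 with *Klrg1*, *Gzma* and *Cx3cr1* among the 10 leading genes. The named states are thus compared below with cells that share some of their leading genes. Since states were formed from the expression of the same cells, levels by state are a description with no test. The Tcf7/Ccr7 cells stood apart. Their *Dusp5* was lower than in unnamed effector cells in 4 of 4 libraries, with 24.5 against 66.5 (WT1), 32.8 against 80.4 (WT2), 50.5 against 64.8 (KO1) and 61.3 against 103 (KO2) CPM, a mean ratio of 0.537 ± 0.189 (SD, n = 4 libraries). Their *Nfatc1* was higher than in unnamed effector cells in 4 of 4 libraries, 43.4, 46.1, 67.3 and 57.8 against 32.8, 35.5, 43.5 and 54.4 CPM, a mean ratio of 1.31 ± 0.20 (SD, n = 4).

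The same cells also had the highest level of the 6 *Nr4a* and *Egr* genes summed, at 30.2 (WT1), 20.5 (WT2), 21.0 (KO1) and 63.1 (KO2) CPM, against 12.3, 15.3, 10.4 and 11.03 in unnamed effector cells. The order held in 4 of 4 libraries, but the counts were small, at 32, 20, 10 and 36 UMIs in 275, 445, 118 and 183 cells. KO2 was far above the others, with 14 *Nr4a1*, 11 *Egr1* and 7 *Egr2* UMIs, and it also had the highest *Dusp1*, at 24.5 CPM against 2.83 to 8.41. In KO1, *Cd4* was among the 10 leading genes of this cluster, and its part in the values was not tested.

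Cycling cells were the other high state. *Nr4a2*, which is known to respond to growth signals as well as to the receptor, stood there at 7.47, 9.58, 4.32 and 5.40 CPM, a mean of 1.98 ± 0.46 (SD, n = 4) times unnamed effector cells. *Dusp1* in cycling cells was 6.61, 8.17, 6.49 and 11.4 CPM, 2.12 ± 0.25 times that of unnamed effector cells, above them in 4 of 4 libraries. Terminal effector-like cells had the lowest *Nr4a* and *Egr* sum beside interferon-stimulated cells, with means of 9.44 ± 2.10 and 9.63 ± 3.56 (SD, n = 4), and the former were above the latter in 3 of 4 libraries. For *Dusp2* the terminal effector-like cells were high, at 107, 119, 120.3 and 158 CPM, a mean of 1.28 ± 0.10 times cycling cells and above them in 4 of 4 libraries. The order of mean *Dusp2* level ran from terminal effector-like (126 ± 22) over interferon-stimulated (124 ± 34), unnamed effector (114 ± 28) and cycling cells (99.4 ± 20.3) to Tcf7/Ccr7 cells (92.1 ± 23.4). The ranges of neighbours over 4 libraries overlapped. Within libraries, interferon-stimulated cells were above unnamed effector cells in 4 of 4 and those above cycling cells in 4 of 4, while the first pair was split 2 to 2 and cycling cells were above Tcf7/Ccr7 cells in 3.

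**Figure D4:**
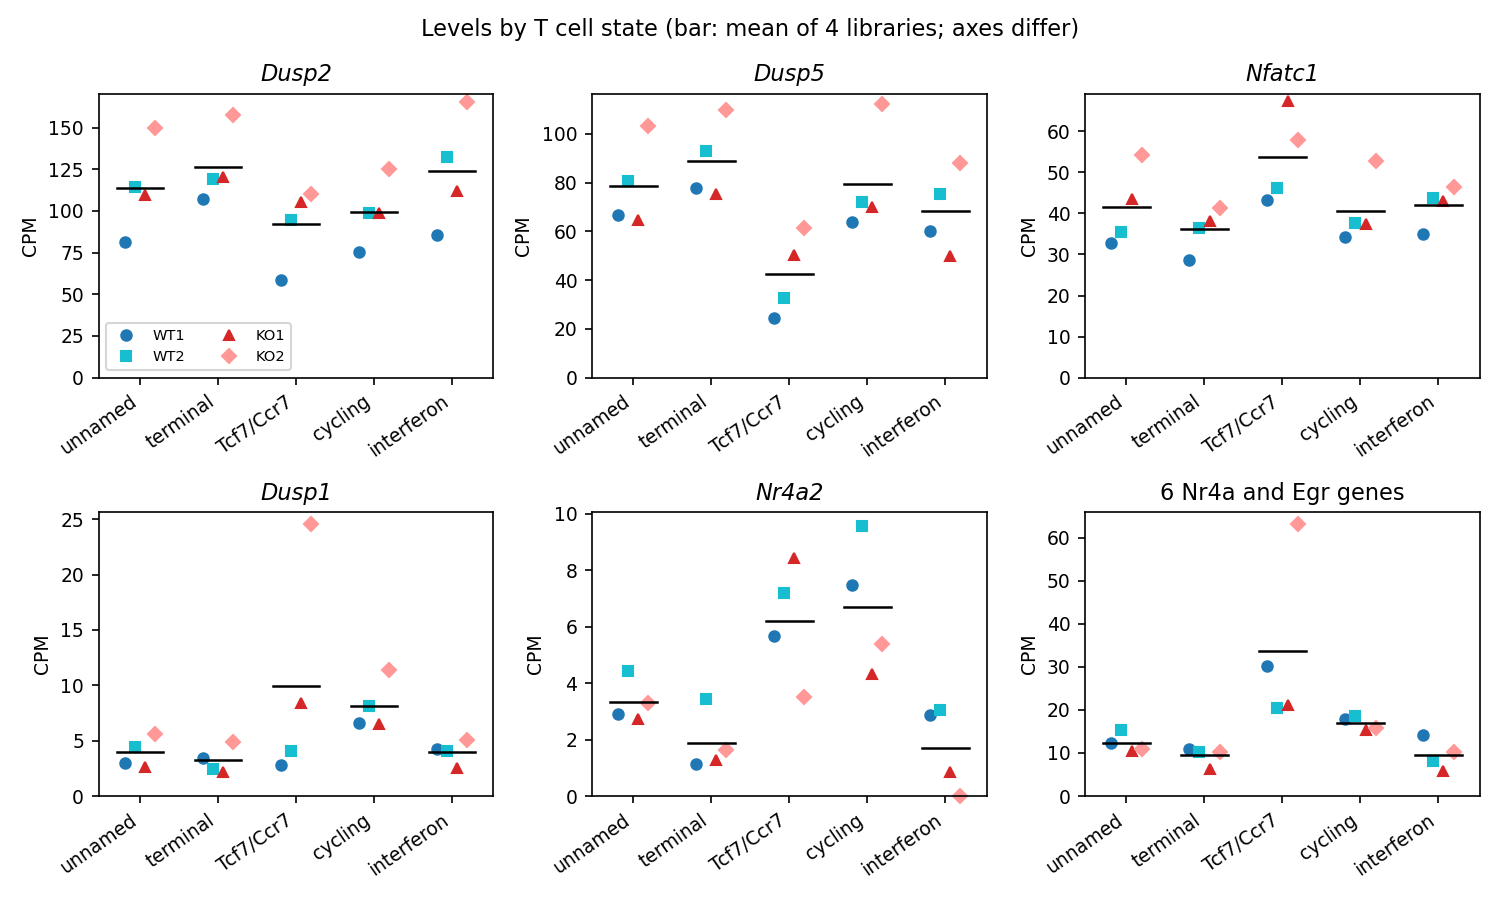
Levels in CPM by T cell state, 1 point per library with a bar for the mean of 4 libraries, for 5 genes and for the sum of the 6 Nr4a and Egr genes. The mean of Dusp5 is lowest and that of the Nr4a and Egr sum highest in Tcf7/Ccr7 cells, where KO2 reaches 63.1 CPM for the sum, while in KO1 Dusp5 is slightly lower in interferon-stimulated cells (49.7 against 50.5 CPM).

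Within the unnamed effector cells, the *Nr4a* and *Egr* UMIs were uneven. In WT2, the cluster of 825 cells led by *Ccl4*, a chemokine gene, *Asb2*, *Tnfrsf9*, a costimulatory receptor gene, and *Cd160* held 83 of these UMIs, 28.4 CPM with an interval of 22.7 to 35.3, the highest of any T cell cluster of that library. In WT1 the highest unnamed cluster was led by *Mllt6*, *Madd* and *Neat1*, at 21.6 CPM with an interval of 12.8 to 34.2 and a median of 1862 UMIs per cell. In KO1 and KO2 the highest unnamed clusters were led by *Tcf7* and *Il7r*, the receptor of interleukin 7, at 14.1 CPM (interval 10.1 to 19.2) and 13.6 CPM (9.52 to 18.8).

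Genotype was also compared within each state. Without the block no member was called in any of the 5 states, where 0.174% (unnamed effector), 0.664% (terminal effector-like), 0.75% (Tcf7/Ccr7), 0.476% (cycling) and 0.259% (interferon-stimulated) of genes were called. Between 3 and 7 members had enough counts to be tested in a state. With the block, *Dusp2* and *Nfatc1* rose in unnamed effector cells, by 0.40 ± 0.08 and 0.50 ± 0.10 on the log2 scale (edgeR adjusted p = 0.0200 and 0.0206), where 3.68% of genes were called. Different clusters make up these cells in each library: those led by *Tcf7* and *Il7r* held 859 cells in KO1 and 942 in KO2, WT1 had 611 cells led by *Il7r*, KO2 had 407 led by *Klrg1*, and WT2 had no such cluster. The *Dusp2* value there was 0.19 without WT1, 0.20 without KO2 and 0.61 without WT2 (no block). *Dusp2* and *Dusp5* rose in cycling cells, by 0.34 ± 0.11 and 0.37 ± 0.12 (adjusted p = 0.0422 and 0.0355), where 6.23% were called. Without the block, *Dusp5* there was 0.064 without KO2 and 0.66 without KO1, and *Dusp2* 0.18 without WT1 and 0.20 without KO2. *Dusp5* rose in Tcf7/Ccr7 cells by 0.98 ± 0.29 (adjusted p = 0.0367), where 2.26% were called. These are small clusters, of 275 (WT1), 445 (WT2), 118 (KO1) and 183 (KO2) cells. *Cd4* was among the leading genes of the KO1 cluster, and its part in the *Dusp5* value was not tested. No member was called with the block in terminal effector-like (6.37%) or interferon-stimulated cells (2.88%), where the log2 fold change of *Dusp2* was 0.27 ± 0.12 and 0.33 ± 0.15 (edgeR adjusted p = 0.195 and 0.329). With 1 library left out and no block, these ran from 0.11 to 0.42 and from 0.058 to 0.65. Whether the change differs between states was not tested.

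Cells that carried a UMI of the *Nr4a* or *Egr* genes were then compared with T cells that did not, both at 1000 UMIs per cell. There were 61 (WT1), 85 (WT2), 46 (KO1) and 60 (KO2) such cells. Among 25 receptor-induced genes, 11 were found more often in these cells in all 4 libraries, as were 4 of 16 AP-1 and immediate early genes, 1 of 13 further feedback genes, 0 of 7 NFAT and calcineurin genes and 1 of 10 heat shock genes. Of the genes found in at least 1% of the other T cells, 5.14% were, and 10 of 21 receptor-induced ones. The lists were chosen with earlier results of these data known, so these counts are a description. With so few cells the exact intervals separated in 3 libraries for *Ccl4*, 2 for *Nfkbia* and *Ifng*, 1 for *Tnfrsf9* and 0 for *Lag3* and *Bhlhe40*. *Tnfrsf9* (4-1BB), a costimulatory receptor induced by antigen, was found in 6.56%, 14.1%, 8.70% and 3.33% of them against 3.74%, 5.20%, 2.02% and 2.94% of the other T cells. *Nfkbia*, an early target of NF-κB, was found in 26.2%, 21.2%, 17.4% and 30% against 14.6%, 16.7%, 11.5% and 14.0%. The chemokine gene *Ccl4* and the interferon gene *Ifng* were named after their values were seen. *Ccl4* was found in 18.03%, 22.4%, 28.3% and 13.3% against 6.43%, 7.06%, 7.90% and 7.44%, and *Ifng* in 21.3%, 11.8%, 10.9% and 15% against 5.26%, 6.23%, 4.92% and 6.14%. *Batf*, a factor of effector differentiation, was found less often in these cells in all 4 libraries, as were 8.18% of all genes by the same rule, with 8.20%, 7.06%, 8.70% and 6.67% against 14.0%, 14.0%, 12.97% and 14.2%. The other members were mixed. *Dusp2* was found in 38 of the 252 cells, 15.1%, against 10.5% of the others and was higher in 3 of 4 libraries, while *Dusp5* (7.54% against 7.25%) and *Nfatc1* (4.37% against 4.03%) were close. *Dusp1* was found in 6 of the 252 cells, 2.38% against 0.403%, higher in 3 of 4 libraries. With *Nr4a1* alone as the mark there were 56 cells, of which 4 had *Nr4a2* (7.14% against 0.299%), 4 *Egr1* (7.14% against 0.456%) and 5 *Dusp1* UMIs (8.93% against 0.404%), higher in 2, 2 and 3 of 4 libraries.

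**Figure D5:**
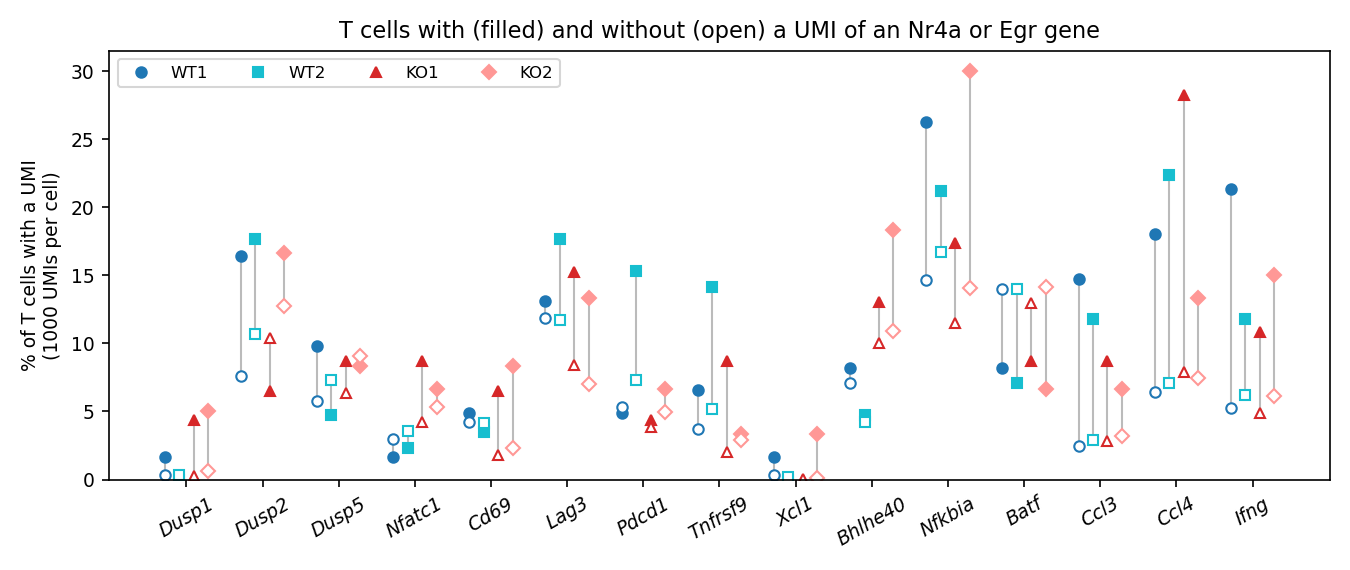
Percent of T cells with a UMI of each gene at 1000 UMIs per cell, for cells with (filled) and without (open) a UMI of an Nr4a or Egr gene, 1 pair per library. Ccl3, Ccl4, Ifng, Lag3, Tnfrsf9, Bhlhe40 and Nfkbia are higher in the marked cells in all 4 libraries and Batf lower, and Ccl3, Ccl4 and Ifng were chosen after their values were seen.

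Other genes of these pathways were taken from 5 lists, which were chosen with earlier results of these data known. Their counts stand beside the shares of all genes given above as a description, not as a test of a list. Of 25 receptor-induced genes, all tested in the T cell clusters, 1 fell without the block. That gene was *Cd69*, the early activation antigen, at 42.4 (WT1), 44.4 (WT2), 23.3 (KO1) and 24.3 (KO2) CPM (log2 fold change -0.88 ± 0.09, edgeR adjusted p = 0.0279). The *Cd69* call was lost without KO2 (log2 fold change -0.87) and with no filter on low counts (-0.88, edgeR adjusted p = 0.142). With the block 14 fell and 1 rose, and the list's median log2 fold change was -0.34 against 0.01 for all genes. Those that fell included the inhibitory receptors *Lag3* (138, 131, 88.7 and 72.7 CPM) and *Pdcd1* (61.4, 88.3, 39.9 and 51.2), and also *Tnfrsf9* (42.6, 64.1, 26.0 and 39.9), with log2 fold changes of -0.75, -0.72 and -0.71. Without the block, *Pdcd1* was -0.48 without WT2, and *Tnfrsf9* -0.42 without WT2 and -0.47 without KO1. *Xcl1*, a chemokine gene, fell by 2.66 on the log2 scale, from 151 and 63 UMIs in WT1 and WT2 to 12 and 23 in KO1 and KO2. The gene that rose was *Bhlhe40*, a transcriptional repressor, at 77.9, 44.2, 112 and 117 CPM (0.95 ± 0.10), or 0.52 without WT2 and 1.39 without WT1 (no block). *Batf*, one of the 2 most abundant of the list, was at -0.11 on the log2 scale with the block (edgeR, adjusted p = 0.346), and *Nfkbia*, the other, fell by 0.38 (edgeR adjusted p = 0.000226), and was at -0.22 without KO1 (no block).

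Of 7 NFAT and calcineurin genes none was called without the block, and with it 3 rose in the T cell clusters and none fell. These were the catalytic subunit genes *Ppp3cc* (32.2, 33.1, 43.6 and 55.6 CPM, 0.58 ± 0.09, adjusted p = 2.3e-05) and *Ppp3ca* (89.5, 96.5, 110.5 and 125 CPM, 0.33 ± 0.07, adjusted p = 0.00184) and the regulatory subunit gene *Ppp3r1* (38.0, 22.7, 43.9 and 57.2 CPM, 0.75 ± 0.13, adjusted p = 9.8e-05), all from edgeR. Without the block, *Ppp3r1* was 0.37 without WT2 and 1.16 without WT1. *Ppp3cb* stood at 60.5, 62.5, 60.1 and 65.3 CPM, or 0.02 on the log2 scale with the block (edgeR, adjusted p = 0.923). Of 13 further feedback genes, 10 were tested and none was called without the block. With it the phosphatase gene *Dusp7* rose (9.30, 8.69, 10.9 and 16.5 CPM, 0.57 ± 0.16), as did *Nab1*, which encodes a corepressor of EGR proteins (99.9, 80.3, 111 and 103 CPM, 0.24 ± 0.07). Without the block, *Dusp7* was 0.32 without KO2, and *Nab1* 0.058 without WT2, 0.13 without KO1 and 0.43 without WT1. *Dusp10*, the other abundant gene of that list, was at 12.8, 16.0, 12.4 and 17.6 CPM, with overlapping genotypes.

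Of 16 AP-1 and immediate early genes, 14 were tested in the T cell clusters. *Jun* fell without the block, at 21.8 (WT1), 26.4 (WT2), 9.08 (KO1) and 7.20 (KO2) CPM (log2 fold change -1.57 ± 0.17, edgeR adjusted p = 0.0360). The *Jun* call was lost without WT2, and also with no filter on low counts, where no gene was called lower. With the block *Fos* fell too (-0.73 ± 0.21), while *Ier3* (0.90 ± 0.13), *Zfp36* (0.91 ± 0.14), *Klf2* (0.27 ± 0.07) and *Zfp36l1* (0.31 ± 0.09) rose. Without the block, *Fos* was -0.37 without KO1 and -1.15 without KO2, *Ier3* 0.47 without KO1, *Klf2* 0.16 without WT1, and *Zfp36l1* 0.051 without KO2, 0.22 without WT1 and 0.55 without KO1. *Zfp36* encodes tristetraprolin, which destabilises cytokine mRNAs. *Klf2*, a quiescence and trafficking factor that receptor signal switches off, stood at 1161, 1383, 1487 and 1591 CPM. *Jund*, the most abundant AP-1 gene, stood at 547, 707, 587 and 705 CPM, with a log2 fold change of 0.04 (adjusted p = 0.795). Heat shock genes, which cell handling can induce, were tested for 8 of 10 members. With the block 3 fell and none rose, namely *Hsp90aa1* (-0.49 ± 0.07), *Hsp90ab1* (-0.42 ± 0.07) and *Hspa8* (-0.34 ± 0.07), of which *Hsp90ab1* was -0.27 and *Hspa8* -0.21 without KO2 (no block), and *Hspa1a* and *Hspa1b* were too rare to test. The part of cell handling in these values was not tested.

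By the likeness of levels over 20 points, the 5 T cell states of each of the 4 libraries, genes among the closest to the mean of the 10 members were *Cldnd1* (Pearson r = 0.907), *Skp1a* (0.867), *Rcsd1* (0.865) and *Dars* (0.846), among 4992 genes compared. Points of one library share its depth and preparation, and the Tcf7/Ccr7 point of KO2 was the highest of the 20 for the members (mean z-score 1.56), so these values describe the points only.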

How the data were processed

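The authors prepared 3′ libraries with the 10x Genomics kit (version 2) and counted reads with Cell Ranger 2.2.0 on mm10, per the labels. The deposited values are unnormalized UMI counts for every barcode of the kit. The annotation version is not given in the sources used here. Totals were 20358780 to 22922219 UMIs per library. From these counts, cells were taken at 500 genes and 10% mitochondrial UMIs, as in the methods, and a gene had to occur in 2 cells. No doublets were called. Clusters were found per library with Seurat 5.3.0 (2000 variable genes less the members and list genes, 15 principal components, 20 neighbours, resolution 0.8), and clusters under 1% were left out of the T cell clusters. A cluster took a marker list's name when at least 3 markers were 2-fold up and found in 10% of its cells, with 1 or more among the 10 leading genes. The naming rule was made with the clusters in view. A cluster without a name whose CD8 T cell markers were under a fraction of 0.5 of the library's level took the other cell type with most markers. Cells with hemoglobin or basophil genes (10 in all T cell clusters) were put aside from the states.

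Counts summed per library were tested with edgeR 4.0.16 (quasi-likelihood, TMM, filterByExpr, R 4.3.3), with adjusted p over all genes, DESeq2 1.42.0 as an alternative, and other scalings, filters, cell sets and left-out libraries. On simulated data for all cells (11591 genes tested), edgeR recovered 89% of 200 genes changed 2-fold. The simulation gave all genes the same spread, held no difference between chimeras and changed no rare gene. It therefore does not show how well smaller changes, or changes of the rare members, would be found. Libraries with the same number come from one chimera per the labels. The deviations of the chimeras from each other correlated only weakly between genotypes over 11566 genes (r = 0.146), so the pairing rests on the labels. Each genotype has 2 animals, so p-values rest on few samples. Shares used cells thinned to 1000 UMIs, which left out 25 (WT1), 223 (WT2), 15 (KO1) and 19 (KO2) cells, and 95% intervals are exact. The members and lists were chosen with earlier results of these data known. The text names the 10 members and, of each list, up to 5 genes called with the smallest adjusted p and the 2 most abundant, beside genes said to be chosen later. Coordinates are from RefSeq on GRCm38.p6, and symbols are as deposited. One gene of the likeness ranking is not reported here.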

Additional observations from a re-analysis of the deposited data

Results flagged for a closer look

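*Egr1* drew attention because both chimeras moved one way in one T cell state and the other way in another. In unnamed effector cells the *Bcl3*-/- level was 0.699 (chimera 1) and 0.537 (chimera 2) times the WT level, and in cycling cells 1.32 (chimera 1) and 1.44 (chimera 2) times. The log2 fold changes within these states were -0.71 ± 0.26 and 0.42 ± 0.35 (edgeR adjusted p = 0.389 and 0.757). In interferon-stimulated cells *Egr1* was lower in both chimeras, and in terminal effector-like and Tcf7/Ccr7 cells the chimeras went opposite ways. Counts were small: in cycling cells all 6 *Nr4a* and *Egr* genes together had 84 (WT1), 66 (WT2), 50 (KO1) and 53 (KO2) UMIs. The difference between the states was not tested.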

How the results depend on the processing

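The number of genes called depended on the fit. In all cells 42 genes were called, with DESeq2 196, with no filter on low counts 4, with the replicate block 1116 and with 1 library left out 40 to 228. In the T cell clusters 28 were called, with DESeq2 165, with no filter 3, with the block 1385 and with 1 library left out 27 to 123. By state, the block took the count from 18 to 382 (unnamed effector, 87 to 200 with 1 library left out), 55 to 528 (terminal effector-like, 56 to 310), 48 to 145 (Tcf7/Ccr7, 51 to 84), 44 to 576 (cycling, 35 to 126) and 19 to 211 (interferon-stimulated, 52 to 183). Leaving out a library leaves 1 sample in an arm, which is assumed to vary like the others.

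Signs changed in few cases. *Dusp10* in all cells was -0.0060 at 5% mitochondrial UMIs, *Fos* in all cells was -0.70 in T cell clusters only and -0.12 at 800 genes, *Dusp5* in interferon-stimulated cells was -0.018 with the block, and the difference in the share of cells with any of 6 *Nr4a* and *Egr* genes was 0.42 points when not thinned. With 1 library left out, log2 fold changes crossed 0 in all cells for *Egr1* (-0.23 to 0.027), *Egr2* (-1.18 to 0.091), *Dusp5* (-0.060 to 0.47), *Dusp10* (-0.18 to 0.24), *Fos* (-0.21 to 0.62), *Jund* (-0.10 to 0.17) and *Ppp3cb* (-0.0055 to 0.028). In the T cell clusters they did so for *Nr4a1* (-0.16 to 0.34), *Egr2* (-1.51 to 0.11), *Dusp1* (-0.39 to 0.62), *Dusp5* (-0.059 to 0.49), *Dusp10* (-0.18 to 0.24) and *Jund* (-0.12 to 0.19). Within states they did so in unnamed effector cells for *Nr4a1* (-0.079 to 0.29), *Dusp1* (-0.45 to 0.53) and *Dusp5* (-0.15 to 0.42), in terminal effector-like cells for *Egr1* (-0.65 to 0.14) and *Dusp5* (-0.15 to 0.31), in cycling cells for *Dusp1* (-0.16 to 0.57) and in interferon-stimulated cells for *Dusp5* (-0.41 to 0.32). The share differences ran from -0.18 to 0.11 points for any of 6 *Nr4a* and *Egr* genes and from -0.22 to 2.44 points for *Dusp5*. The causes were not tested. An alternative without cells of hemoglobin or basophil genes was chosen after seeing the data. At resolution 0.4, WT1 had no terminal effector-like cluster. The rare *Nr4a* and *Egr* genes are limited by depth.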
